A study of Mus musculus with 11 samples.

Results

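Transcripts of the mitochondrial respiratory chain and of ATP synthase of the mouse were measured by microarray in CD8 T cells recovered from tumors. The genes were chosen by symbol: those of complex I and its assembly factors (Nduf), complex II (Sdha, Sdhb, Sdhc and Sdhd), complex III (Uqcr and Cyc1), cytochrome c (Cycs), complex IV (Cox4 to Cox8) and ATP synthase (Atp5). A gene also needed a row of the deposited table, which is a probe set, that names no other gene, and a mean log2 signal of at least 4.33 over the 11 arrays. Of 87 genes found by symbol, 86 met that minimum, among 15194 genes tested in all. Just inside it was Cox8c at 4.62, and the gene left out, Cox7b2, was at 3.34. The rule uses no measured difference between groups, though it was written with earlier results of these data known.

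The T cells were taken from donors with a transgenic T cell receptor and the congenic marker Thy1.2, and donors and hosts were either galectin-3 knockout (KO) or wild type (WT). Groups are written with the genotype of the T cells first and that of the host after the stroke: KO/KO (n = 4 arrays), WT/KO (n = 3) and WT/WT (n = 4), with no KO/WT group. All hosts carried NT2.5 mammary tumors, were given 100 mg/kg cyclophosphamide on day 8, a GM-CSF vaccine of whole cells on day 9 and the T cells a day later (day 10). The transferred cells were sorted from tumors by Thy1.2 5 days after transfer. RNA was amplified before labelling, and the labels give neither the galectin-3 allele, the age of the animals nor the number of mice behind an array. The submitters count 4 biological replicates a group, but only 3 WT/KO arrays were available here. The p-values thus measure the spread between these arrays.

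The respiratory chain passes electrons from NADH (complex I) and succinate (complex II) through complex III and cytochrome c to oxygen at complex IV, and pumps protons across the inner mitochondrial membrane. ATP synthase lets the protons flow back and makes ATP. T cells depend on this machinery for survival and memory, and activated effector cells add strong glycolysis to it. Most subunits are encoded in the nucleus, while a core of them is encoded by mitochondrial DNA. Of 13 mitochondrially encoded subunit genes looked for, 0 were named by a row of their own, so all values below are those of nuclear genes.

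Lgals3, the gene of galectin-3, averaged 7.43 ± 0.14 (SD, n = 4) log2 signal in KO/KO cells, 8.27 ± 0.22 (SD, n = 3) in WT/KO cells and 8.31 ± 0.17 (SD, n = 4) in WT/WT cells. Its KO/KO arrays were all below those of both other groups. KO/KO cells differed from WT/WT cells by -0.87 (SE 0.13; limma adjusted p = 0.103) and from WT/KO cells by -0.84 (SE 0.14; limma adjusted p = 0.661). The gene of the knockout itself thus had no adjusted p under 0.05, the threshold used below. CD8 T cell markers (9 of 10 were named) had a mean log2 signal of 9.49 to 9.71 in KO/KO, 9.50 to 9.64 in WT/KO and 9.39 to 9.63 in WT/WT arrays. Monocyte and macrophage markers, of cells that a Thy1.2 sort should leave out, were present. Of 17 listed, 15 were named and 13 passed the signal minimum. All 13 tested had a positive log2 fold change in KO/KO and in WT/KO against WT/WT cells. Their mean log2 signal was 6.64 to 7.05 in KO/KO, 6.71 to 7.27 in WT/KO and 6.28 to 6.46 in WT/WT arrays. The minimum is a mean over all arrays, so dim markers such as Msr1 (4.51) and Adgre1 (4.49) can pass through the groups where they are high. Over all 15 named the mean was 6.29 to 6.65, 6.36 to 6.86 and 5.97 to 6.13 in these groups. Arrays 1 and 4 of WT/WT cells stood apart by a lower slope on the mean of all arrays, at 0.956 and 0.934. The other 9 had 0.989 to 1.04. Such arrays are called narrower in range here, though a slope also depends on how well an array follows the others. The range itself was not measured. In such arrays bright genes on average read lower and dim genes higher than in the mean array. The main counts of members and of markers that rest on them are therefore also given without them.

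The members' probe sets had log2 signals from 4.62 to 11.98 with a median of 7.66, and the median over all genes tested was 5.81. Probe sets differ in their response, so these signals do not rank transcripts by abundance. The median within-group SD of a member was 0.215 on the log2 scale, against 0.208 for all genes. It ran from 0.0935 for Atp5a1, the alpha subunit in the catalytic head of ATP synthase, to 0.552 for Cox6b2, a testis form of a complex IV subunit.

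Array by array, the members as a whole differed more within a group than between groups. For each array the median deviation of the 86 members from their own means over all arrays was taken. It was -0.11, 0.05, -0.06 and 0.14 on the log2 scale in KO/KO cells, 0.04, 0.01 and 0.00 in WT/KO cells and -0.06, 0.07, 0.02 and -0.05 in WT/WT cells. The lowest and the highest array were both of KO/KO cells: in array 1 of that group 23 of 86 members were above their own mean, and in array 4 there were 67. The group averages were 0.00 (SD 0.11) in KO/KO, 0.02 (SD 0.02) in WT/KO and -0.01 (SD 0.06) in WT/WT cells, and the ranges of all 3 groups overlapped.

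**Figure D1:**
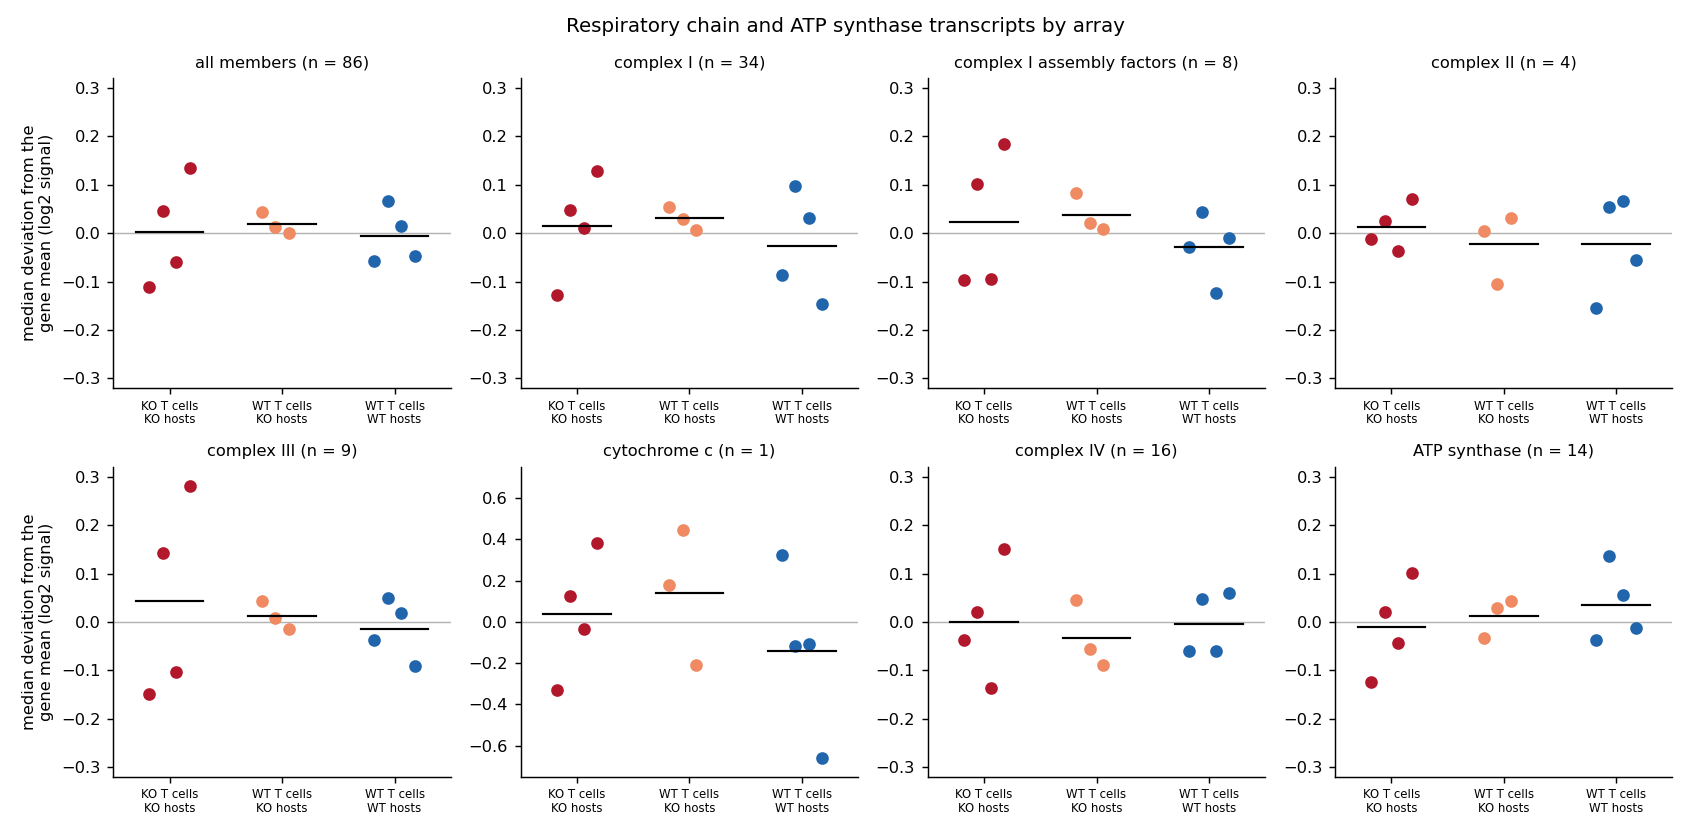
Median deviation of the members from their own mean (log2 signal, vertical axis) in each array (points), by group (horizontal axis) and complex (panels), with a line at the group mean. The vertical scale of the cytochrome c panel, which holds 1 gene, is wider. In the panel of all members the KO/KO cells spread from -0.11 to 0.14 and enclose every array of the other groups.

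The spread within KO/KO cells ran through most complexes. Array 4 of KO/KO cells had the highest median of all 11 arrays for complex I (0.13), its assembly factors (0.19), complex II (0.07), complex III (0.28) and complex IV (0.15). Array 1 of KO/KO cells was the lowest for complex III (-0.15) and ATP synthase (-0.12). For ATP synthase the highest array was array 2 of WT/WT cells (0.14).

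Beyond function, some members share promoter sequence motifs. Nuclear genes of the chain are known targets of the activators NRF-1 and GABP (also called NRF-2), which couple them to mitochondrial biogenesis, and of YY1. RefSeq promoters of build GRCm38.p6, 250 bases before and 50 after the start, were found for 68 of the 86 members and 11692 of the genes tested. Both strands were searched for exact letters. The NRF-1 core GCATGCGC stood in 12 of 68 members (17.6%), against 5.07% of all genes tested with a promoter. The GABP core CCGGAAG stood in 17 members (25%), against 16.7%, and the YY1 letters AAGATGGCG in 7 members (10.3%), against 2.95%. In contrast TATAAA, which marks another promoter type, stood in 7 members (10.3%), against 9.80%. In all, 30 of the 68 members held at least 1 of the first 3 motifs. Both the NRF-1 and the GABP letters stood in 5 of the 68: Atp5k, Atp5l, Cox6a1, Sdhb and Uqcr11. Neither count was made over all genes tested, so no share stands beside them. The NRF-1 and GABP letters do not overlap each other in the promoters shown. A match is a description of the letters and not a mapped binding site.

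Promoters of 4 members show these patterns, each as the 250 bases before the start, 5′ to 3′ on the strand of the gene, with matches in capitals. Cycs, the electron carrier between complexes III and IV, holds an NRF-1 match whose first base is 60 before the start (chr6:50566570-50566819, minus strand). Uqcr11, the member of lowest unadjusted p among those higher in KO/KO than in WT/WT cells, has a GABP match at 66 (chr10:80406822-80407071, minus strand), and an NRF-1 match that begins 4 bases before the start and runs past the end of the sequence shown. Cox6a1, the common form beside the muscle form described below, has overlapping NRF-1 matches on both strands from 162 to 153 and a GABP match on the other strand at 16 (chr5:115348959-115349208, minus strand). Ndufb8, the member of lowest unadjusted p in WT/KO against WT/WT cells, has none of these letters in this stretch (chr19:44555443-44555692, minus strand).

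Cycs: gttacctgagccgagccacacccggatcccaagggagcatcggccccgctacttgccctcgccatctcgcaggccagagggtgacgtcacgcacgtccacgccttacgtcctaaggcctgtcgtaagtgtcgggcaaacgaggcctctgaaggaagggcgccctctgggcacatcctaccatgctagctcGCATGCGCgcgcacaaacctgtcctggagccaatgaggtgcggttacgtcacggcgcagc
Uqcr11: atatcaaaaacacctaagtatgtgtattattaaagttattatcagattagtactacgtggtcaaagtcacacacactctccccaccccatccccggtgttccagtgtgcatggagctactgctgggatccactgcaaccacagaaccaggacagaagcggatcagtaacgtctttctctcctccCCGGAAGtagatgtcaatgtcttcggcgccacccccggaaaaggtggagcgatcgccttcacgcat
Cox6a1: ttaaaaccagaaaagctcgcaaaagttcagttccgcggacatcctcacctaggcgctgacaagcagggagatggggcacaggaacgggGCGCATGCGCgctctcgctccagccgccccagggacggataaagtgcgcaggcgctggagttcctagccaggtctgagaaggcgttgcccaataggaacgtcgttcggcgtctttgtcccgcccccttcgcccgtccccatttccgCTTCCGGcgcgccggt
Ndufb8: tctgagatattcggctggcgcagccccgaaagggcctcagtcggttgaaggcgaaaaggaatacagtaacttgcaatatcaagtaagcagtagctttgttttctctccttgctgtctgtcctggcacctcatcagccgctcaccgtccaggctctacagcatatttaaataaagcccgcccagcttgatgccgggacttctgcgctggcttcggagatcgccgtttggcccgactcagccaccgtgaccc

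Of the comparisons that follow, WT/KO against WT/WT concerns galectin-3 of the host, KO/KO against WT/WT its loss from both sides, and KO/KO against WT/KO that of the T cell within KO hosts. They share arrays, so their values are not independent. A log2 fold change is the mean log2 signal of the group named first minus that of the other, and medians over the 3 comparisons are given in the order just named.

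No respiratory chain gene passed the test for the genotype of the host, and the members centred near 0. In WT/KO against WT/WT cells the median log2 fold change of the 86 members was 0.04, beside -0.03 over all genes, and it was -0.01 without the 2 arrays of narrower range. It was positive for 50 members (58.1%), beside 45.5% of all genes, and without those arrays for 39 members (45.3%), beside 47.7% of all genes. With limma, 0 of 86 members had an adjusted p under 0.05, as did 0.0% of the 15194 genes. At an unadjusted p under 0.05, 3 members were higher (Ndufb8, Ndufa7 and Ndufa2), or 3.49% beside 3.62% of all genes, and 1 was lower (Cox6a2), or 1.16% beside 3.86%. Without overlap between the groups were 2 members that were higher (Ndufb8 and Ndufs1; 2.33% of members, beside 3.57% of all genes) and 2 that were lower (Cox6a2 and Cox7b; 2.33%, beside 5.32%). At such a p in either direction were 4.65% of members, beside 7.48% of all genes. Without the 2 narrower arrays 3 members had one (3.49%, beside 4.25% of all genes), and 6 members were higher (6.98%, beside 9.1%) and 9 lower (10.5%, beside 10.1%) without overlap, now against 2 WT/WT arrays.

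Loss of galectin-3 from T cells and hosts gave no respiratory chain gene past the test either. Here the median of the members was 0.04, beside -0.02 over all genes, and 0.01 without the 2 arrays of narrower range. The log2 fold change was positive for 51 members (59.3%), beside 46.7% of all genes, and without those arrays for 45 (52.3%), beside 49.6%. By limma 0 members passed at an adjusted p under 0.05, beside 0.0% of all genes. Unadjusted, 1 member was higher (Uqcr11), or 1.16% beside 4.79% of all genes, and 1 was lower (Cox6a2), or 1.16% beside 3.67%. Either way these were 2.33% of members, beside 8.46% of all genes. Without the 2 narrower arrays 6 members had such a p (6.98%, beside 5.03% of all genes), 2 of them higher (2.33%, beside 3.09%) and 4 lower (4.65%, beside 1.95%). Groups did not overlap for 0 members higher (2.61% of all genes) and for Cox6a2 alone among those lower (2.41% of all genes). Without the narrower arrays these were 2 members (2.33%, beside 6.78%) and 7 members (8.14%, beside 5.63%).

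For the genotype of the T cell, too, no member passed the test. KO/KO against WT/KO cells gave a median over the members of 0.01, the same as over all genes (0.01). The log2 fold change was positive for 45 members (52.3%), beside 53.2% of all genes. Again 0 members passed limma at an adjusted p under 0.05, beside 0.0% of all genes. At an unadjusted p under 0.05, 2 members were higher (Cox4i2 and Cox7b), or 2.33% beside 1.93% of all genes, and 2 were lower (Ndufb8 and Atp5mpl), or 2.33% beside 1.48%. In either direction this was 4.65% of members, beside 3.42% of all genes. Groups did not overlap for Cox4i2, which was higher (2.26% of all genes), and for Ndufb8, which was lower (1.81% of all genes). The shares of members and of all genes lay near each other in this comparison.

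These values also bound what the arrays could have missed. The 95% limma interval of the log2 fold change lay within -1 and 1 for 85 of 86 members in each comparison, beside 93.5% to 94.4% of all genes. The exceptions were Ndufb4, with upper bounds of 1.14 and 1.01 for WT/KO and KO/KO against WT/WT cells, and Ndufaf1, with a lower bound of -1.09 for KO/KO against WT/KO cells. Within -0.5 and 0.5 lay 48 members in WT/KO against WT/WT cells (55.8%, beside 51.1% of all genes). There were 53 for KO/KO cells against WT/WT cells (61.6%, beside 59%) and 48 in KO/KO against WT/KO cells (55.8%, beside 59.8%). The other intervals reach past 0.5 in at least 1 direction, so larger differences of single members, up to the bounds given above, may not have been detected. In RNA of sorted cells, fewer cells of a type and less RNA per cell cannot be told apart.

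**Figure D2:**
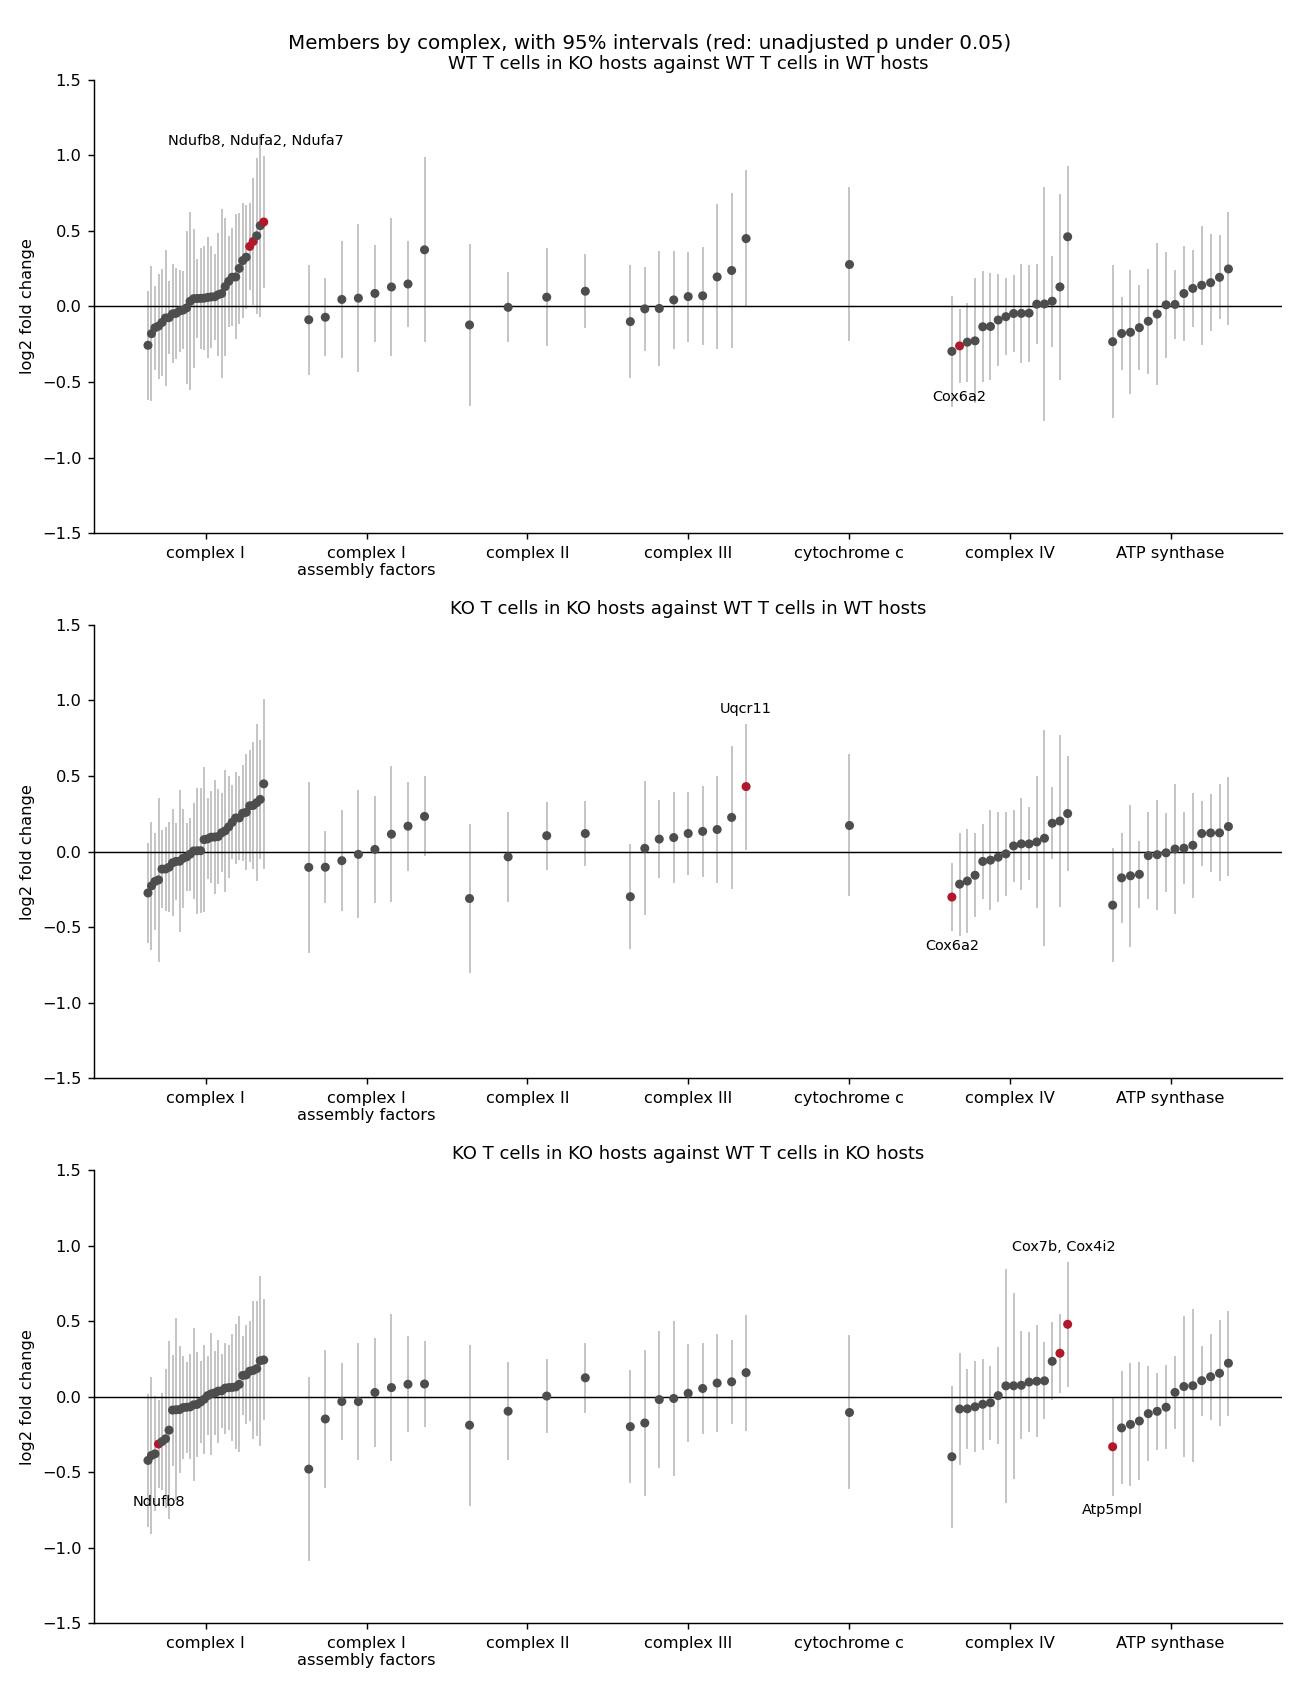
Log2 fold change (vertical axis) of each member (points) with its 95% limma interval (lines), ordered within each complex, in the 3 comparisons (panels). Red points have an unadjusted p under 0.05 and are named from left to right, and none has an adjusted p under 0.05. All points lie between -0.48 and 0.56, and most intervals span 0.

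Complex I, the entry point for electrons from NADH, contributed 34 members. Their median log2 fold change was 0.06 for WT/KO against WT/WT cells (22 of 34 positive), 0.08 for KO/KO cells against WT/WT cells (21 positive) and -0.01 for KO/KO against WT/KO cells (17 positive). Without the 2 narrower arrays the medians against WT/WT cells were 0.00 in WT/KO cells (17 positive) and 0.02 in KO/KO cells (18 positive).

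Ndufb8, an accessory subunit of the membrane arm, had log2 signals of 7.27, 7.65, 7.71 and 7.46 in KO/KO cells, 7.72, 7.94 and 7.85 in WT/KO cells and 7.37, 7.57, 7.53 and 7.28 in WT/WT cells. The 3 arrays of WT/KO cells were thus above all 8 others, though by only 0.01 over the nearest. Its log2 fold change was 0.40 (SE 0.13; limma adjusted p = 0.642) in WT/KO against WT/WT cells and -0.31 (SE 0.13; limma adjusted p = 0.9998) in KO/KO against WT/KO cells.

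The accessory subunit Ndufa7 had 10.82, 10.93, 10.97 and 11.31 in KO/KO cells, 11.66, 11.36 and 11.28 in WT/KO cells and 10.38, 11.06, 10.77 and 11.28 in WT/WT cells. It differed by 0.56 (SE 0.20; limma adjusted p = 0.654) in WT/KO against WT/WT cells and by -0.42 (SE 0.20; limma adjusted p = 0.9998) in KO/KO against WT/KO cells, with overlapping arrays in both. Ndufa2, an accessory subunit of the NADH-oxidizing end, was at 9.67, 10.26, 9.67 and 9.89 in KO/KO cells, 10.18, 9.87 and 9.82 in WT/KO cells and 9.15, 9.91, 9.42 and 9.63 in WT/WT cells. The WT/WT group held the 3 lowest of these arrays and also 1 of the higher ones. Ndufa2 differed by 0.43 (SE 0.19) in WT/KO against WT/WT cells and by 0.35 (SE 0.18; limma adjusted p = 0.606) for KO/KO cells against WT/WT cells.

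Ndufs1, a core iron-sulfur subunit of the matrix arm, was at 6.28, 5.83, 6.43 and 6.10 in KO/KO cells, 6.04, 6.49 and 6.17 in WT/KO cells and 5.98, 6.01, 5.87 and 5.76 in WT/WT cells. Only array 2 of KO/KO cells lay among the WT/WT arrays, and the others from KO hosts lay above them. Its log2 fold change against WT/WT cells was 0.25 (SE 0.15; limma adjusted p = 0.630) in KO/KO and 0.33 (SE 0.16; limma adjusted p = 0.654) in WT/KO cells.

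Ndufa9, an accessory subunit near the junction of the arms, had 6.70, 6.79, 6.94 and 7.26 in KO/KO cells, 6.76, 6.71 and 6.56 in WT/KO cells and 6.33, 6.46, 7.09 and 6.59 in WT/WT cells. Ndufab1, the mitochondrial acyl carrier protein, had 8.43, 8.64, 8.81 and 8.71 in KO/KO cells, 8.75, 8.42 and 8.83 in WT/KO cells and 8.75, 9.27, 9.01 and 8.65 in WT/WT cells. Both overlapped between all groups.

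Ndufa1, a small subunit of the membrane arm, had 9.55, 9.08, 9.14 and 9.62 in KO/KO cells, 9.96, 9.56 and 9.65 in WT/KO cells and 9.11, 9.56, 9.62 and 9.40 in WT/WT cells. Ndufs8, another core iron-sulfur subunit, had 7.54, 8.00, 8.03 and 7.93 in KO/KO cells, 8.29, 8.24 and 7.99 in WT/KO cells and 7.96, 7.78, 8.19 and 8.00 in WT/WT cells. Their differences between KO/KO and WT/KO cells were -0.38 (SE 0.18) and -0.30 (SE 0.15), both with a limma adjusted p of 0.9998. Ndufa11b and Ndufs6b are named as further copies of Ndufa11 and Ndufs6, so their signal cannot be assigned to 1 copy with certainty. In WT/KO against WT/WT cells they were at 0.47 (SE 0.24) and 0.09 (SE 0.26).

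The 8 assembly factors of the Ndufaf series, which help build complex I without being part of it, had median log2 fold changes of 0.07, 0.00 and 0.00 in the 3 comparisons. Ndufaf7, a methyltransferase that modifies a complex I subunit, had 5.83, 5.72, 5.44 and 5.63 in KO/KO cells, 5.51, 5.61 and 5.58 in WT/KO cells and 5.42, 5.60, 5.16 and 5.51 in WT/WT cells. All 3 groups overlapped, and KO/KO cells against WT/WT cells gave 0.23 (SE 0.12; limma adjusted p = 0.607). Ndufaf1 had the widest difference of this group in KO/KO against WT/KO cells, at -0.48 (SE 0.28; limma adjusted p = 0.9998).

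Complex II, which is also an enzyme of the citrate cycle, has 4 subunits and all were measured. Median log2 fold changes were 0.03, 0.04 and -0.05. Sdha and Sdhb, which carry the flavin and the iron-sulfur clusters, and Sdhc, a membrane anchor, lay between -0.10 and 0.13 in every comparison. Sdhd, the other anchor, was at -0.12 (SE 0.24), -0.31 (SE 0.23) and -0.19 (SE 0.24), and its limma adjusted p was 0.878, 0.676 and 0.9998.

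Complex III, which hands electrons from ubiquinol to cytochrome c, had 9 members with median log2 fold changes of 0.07, 0.12 and 0.02. For KO/KO cells against WT/WT cells 8 of 9 were positive (7 without the 2 narrower arrays), and the array medians of complex III in KO/KO cells nevertheless spanned -0.15 to 0.28, around all of those in WT/WT cells (-0.09 to 0.05). The core proteins Uqcrc1 and Uqcrc2, the Rieske protein Uqcrfs1 and cytochrome c1 (Cyc1) lay between -0.17 and 0.20 in all comparisons.

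Uqcr11, a small accessory subunit, had log2 signals of 10.48, 10.78, 10.88 and 10.99 in KO/KO cells, 10.99, 10.50 and 10.92 in WT/KO cells and 10.34, 10.89, 10.03 and 10.15 in WT/WT cells. Of the WT/WT arrays 3 lay below all 7 from KO hosts, and array 2 lay among the highest. Against WT/WT cells it differed by 0.43 (SE 0.19; limma adjusted p = 0.585) in KO/KO and by 0.45 (SE 0.21; limma adjusted p = 0.654) in WT/KO cells.

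Uqcr10, another small subunit, was at 7.47, 7.78, 7.84 and 8.04 in KO/KO cells, 8.33, 7.68 and 7.93 in WT/KO cells and 8.24, 8.04, 8.14 and 7.91 in WT/WT cells. KO/KO cells against WT/WT cells gave -0.30 (SE 0.16; limma adjusted p = 0.611), opposite in sign to Uqcr11, and array 4 of KO/KO cells reached the WT/WT range. Cycs, the mobile carrier, was at 0.28 (SE 0.23), 0.18 (SE 0.22) and -0.10 (SE 0.23) in the 3 comparisons, and limma adjusted p values were 0.727, 0.791 and 0.9998.

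Complex IV, cytochrome c oxidase, had 16 members, among them Ndufa4, which is named for complex I but belongs to complex IV, and its relative Ndufa4l2. Median log2 fold changes were -0.06, 0.01 and 0.07. In WT/KO against WT/WT cells 5 of 16 were positive (4 without the 2 narrower arrays). This complex has subunits with a common form and forms restricted to a tissue or condition, and those pairs are given side by side.

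Cox6a2, the heart and skeletal muscle form of subunit 6a, was at 6.26, 6.45, 6.37 and 6.52 in KO/KO cells, 6.38, 6.51 and 6.42 in WT/KO cells and 6.69, 6.88, 6.58 and 6.64 in WT/WT cells. All 7 arrays from KO hosts were below all 4 from WT hosts. Its log2 fold change was -0.30 (SE 0.10; limma adjusted p = 0.482) in KO/KO and -0.26 (SE 0.11; limma adjusted p = 0.654) in WT/KO against WT/WT cells. Without the 2 narrower arrays these were -0.33 and -0.29.

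Of 6 skeletal muscle markers, all had a negative log2 fold change for KO/KO cells against WT/WT cells and 5 had one in WT/KO against WT/WT cells, beside 1 in each at an unadjusted p under 0.05 and 0 with an adjusted p under 0.05. Without the 2 narrower arrays 4 of 6 were negative in each. Their mean log2 signal spanned 5.58 to 5.74 in KO/KO cells, 5.65 to 5.85 in WT/KO cells and 5.70 to 6.00 in WT/WT cells, and these ranges overlap. In arrays 1 to 4 of WT/WT cells the muscle markers had mean deviations from their own means of 0.14, -0.05, 0.05 and 0.24. Cox6a2 was at 6.69, 6.88, 6.58 and 6.64 in these arrays. The other marker lists are given beside the muscle markers. For KO/KO cells against WT/WT cells 0 of 9 tumor epithelium, 0 of 4 adipocyte and 0 of 3 B cell markers were positive. Their median log2 fold changes were -0.20, -0.22 and -0.18, beside -0.17 for the muscle markers. Without the 2 narrower arrays 4 of 9, 0 of 4 and 0 of 3 were positive. The medians were then -0.10, -0.17 and -0.08, beside -0.11 for the muscle markers. Of the CD8 T cell markers 7 of 9 were positive in this comparison, and 4 of 9 without those arrays. All 13 monocyte and macrophage markers tested were positive either way. The part of other cells' RNA in the Cox6a2 difference was not tested.

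Cox8b, another muscle form, was dim, between 4.62 and 5.23 in all arrays, with log2 fold changes of -0.13, -0.06 and 0.08. The common form Cox6a1 was at 9.61, 9.70, 9.31 and 9.86 in KO/KO cells, 9.54, 9.71 and 9.32 in WT/KO cells and 9.50, 9.54, 9.79 and 9.44 in WT/WT cells, with all groups overlapping.

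Cox4i2, the form of subunit 4 that is known from lung and from cells short of oxygen, was at 6.33, 6.38, 6.52 and 6.18 in KO/KO cells, 5.72, 5.93 and 5.98 in WT/KO cells and 6.39, 5.65, 5.88 and 6.49 in WT/WT cells. KO/KO cells lay above WT/KO cells without overlap, while the WT/WT arrays fell into a pair near each. The difference in KO/KO against WT/KO cells was 0.48 (SE 0.19; limma adjusted p = 0.9998). The higher pair of WT/WT arrays is the pair of narrower range.

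The common form Cox4i1 was at 7.48, 7.72, 7.64 and 7.66 in KO/KO cells, 7.48, 7.27 and 7.42 in WT/KO cells and 7.38, 7.57, 7.25 and 7.55 in WT/WT cells. Of the KO/KO arrays 3 were above every WT/KO array, and array 1 was level with the highest of them to 2 decimals. The difference was 0.23 (SE 0.12; limma adjusted p = 0.9998). Both forms of subunit 4 had the same sign in that comparison.

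Cox7b, a small accessory subunit, was at 7.20, 6.82, 6.99 and 7.13 in KO/KO cells, 6.66, 6.83 and 6.75 in WT/KO cells and 6.89, 6.99, 7.14 and 6.92 in WT/WT cells. WT/KO cells were below all WT/WT arrays, at -0.24 (SE 0.12; limma adjusted p = 0.664). KO/KO cells were higher than WT/KO cells by 0.29 (SE 0.12; limma adjusted p = 0.9998), with 1 array among them. Its testis form Cox7b2 lay below the signal minimum, between 3.07 and 3.73 in all arrays.

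Cox8a, the common form of subunit 8, was at 7.95, 8.52, 8.14 and 7.80 in KO/KO cells, 8.88, 8.37 and 8.25 in WT/KO cells and 7.60, 8.19, 8.08 and 8.30 in WT/WT cells. It was 0.46 (SE 0.22; limma adjusted p = 0.654) higher in WT/KO than in WT/WT cells, the largest difference of a complex IV member there. Its testis form Cox8c was dim, between 4.26 and 5.04 in all arrays.

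**Figure D3:**
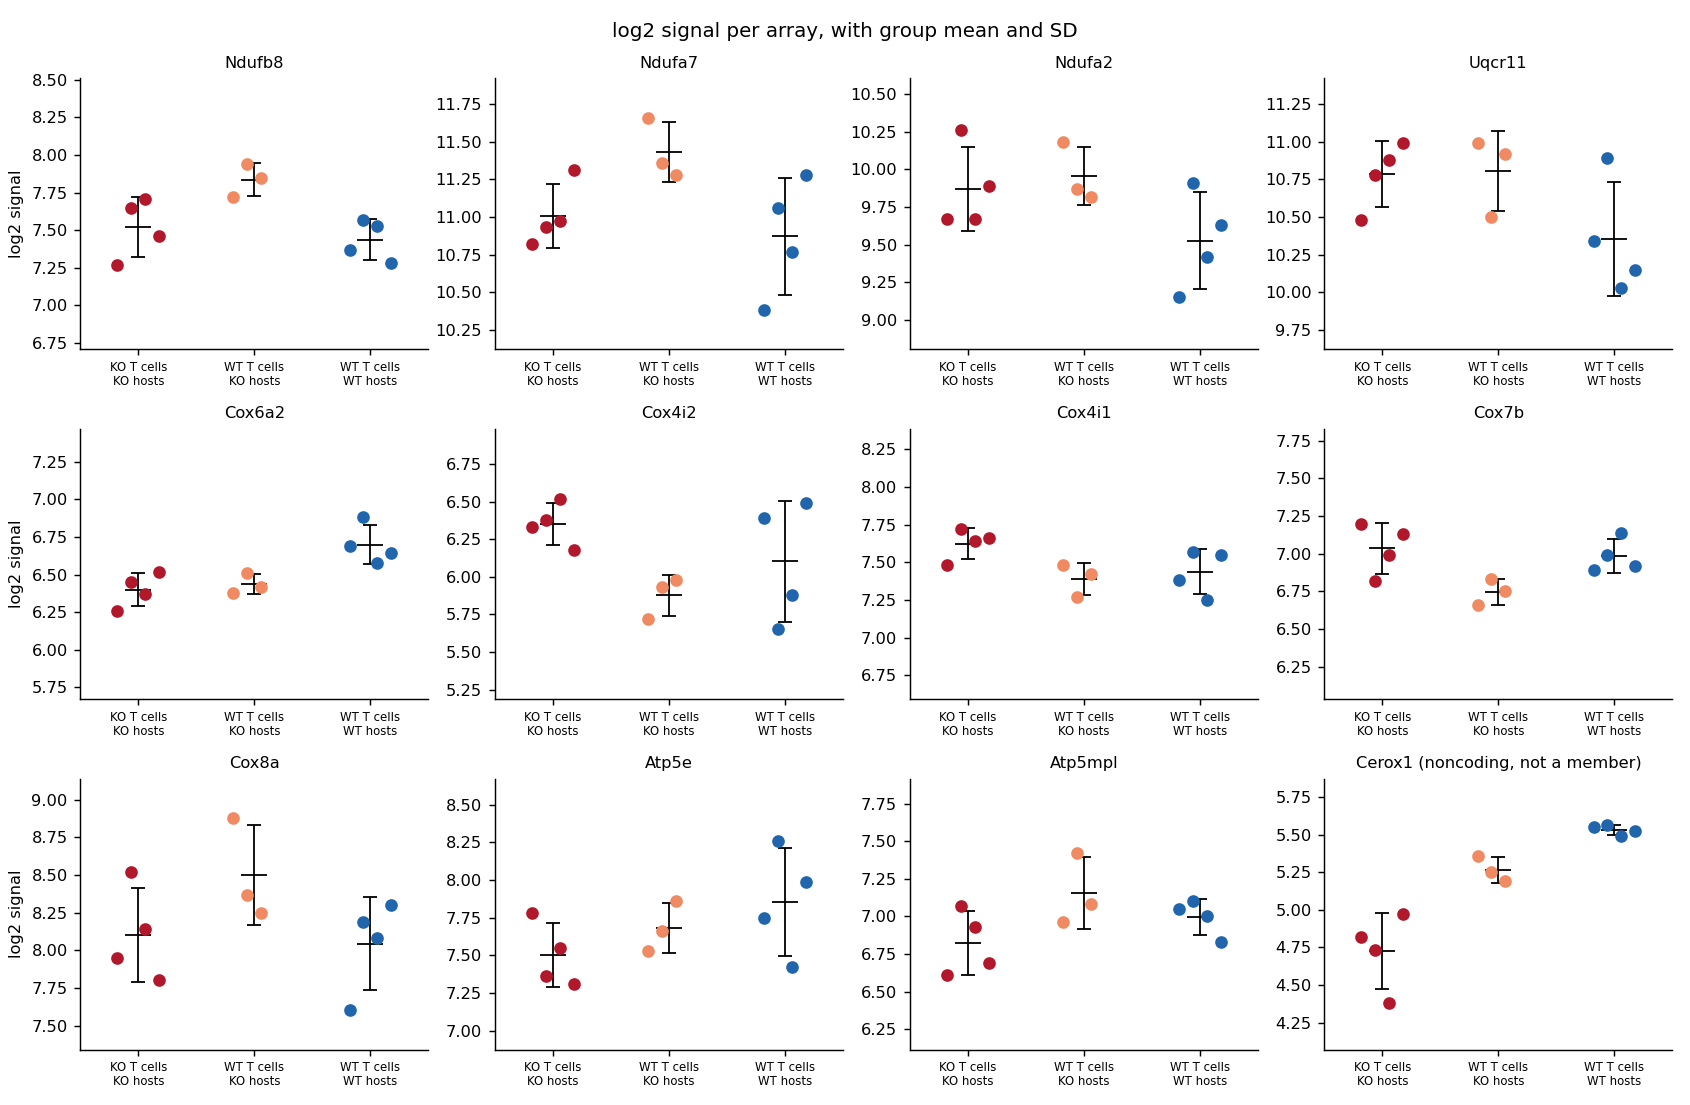
Log2 signal (vertical axis) in each array (points) of 11 members and of the noncoding RNA Cerox1, by group (horizontal axis), with group mean and SD (bars). Each vertical axis spans the same width of log2 signal but starts at a different level. The arrays of Cox6a2 from KO hosts all lie below those from WT hosts, and those of Cerox1 separate all 3 groups.

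The remaining pairs showed no separation of groups. Cox6b1, the common form, was at 8.49, 8.76, 8.78 and 8.78 in KO/KO cells, 8.91, 8.77 and 8.67 in WT/KO cells and 8.89, 8.87, 8.73 and 8.59 in WT/WT cells. The testis form Cox6b2 varied most within groups, with 5.29 to 6.49 in KO/KO, 5.42 to 6.07 in WT/KO and 5.10 to 6.66 in WT/WT cells. Among the forms of subunit 7a, Cox7a2 alone had a row naming no other gene, with values between 7.91 and 8.53 in all arrays.

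Ndufa4 was at 7.64, 7.55, 7.48 and 7.85 in KO/KO cells, 7.79, 7.69 and 7.56 in WT/KO cells and 7.70, 7.92, 7.47 and 7.50 in WT/WT cells. Ndufa4l2, known as a target of the hypoxia-inducible factor HIF-1, was near the minimum at 4.59, 4.81, 4.49 and 4.99 in KO/KO cells, 4.88, 4.41 and 4.57 in WT/KO cells and 5.09, 4.68, 4.74 and 5.15 in WT/WT cells. Its difference in WT/KO against WT/WT cells was -0.30 (SE 0.17; limma adjusted p = 0.667), and its highest arrays were again the pair of narrower range. Without that pair the difference stayed negative, but the other WT/WT arrays, at 4.68 and 4.74, lay within the WT/KO range of 4.41 to 4.88. The cause of the difference was not tested.

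ATP synthase had 14 members, with median log2 fold changes of 0.01, 0.00 and -0.02 and ranges of -0.23 to 0.25, -0.35 to 0.17 and -0.33 to 0.22. Atp5a1 and Atp5b, which form the catalytic head, lay between -0.10 and 0.12. Atp5e, the epsilon subunit of the central stalk, was at 7.78, 7.36, 7.55 and 7.31 in KO/KO cells, 7.53, 7.66 and 7.86 in WT/KO cells and 7.75, 8.26, 7.42 and 7.99 in WT/WT cells. All groups overlapped, and KO/KO cells against WT/WT cells gave -0.35 (SE 0.17; not past the limma threshold). Atp5mpl, a small protein of the membrane part, was at 6.61, 7.07, 6.93 and 6.69 in KO/KO cells, 6.96, 7.42 and 7.08 in WT/KO cells and 7.05, 7.10, 7.00 and 6.83 in WT/WT cells. It differed by -0.33 (SE 0.15; limma adjusted p = 0.9998) in KO/KO against WT/KO cells, and 1 KO/KO array lay within the WT/KO range.

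The genes Atp5g1, Atp5g2 and Atp5g3 encode the same c subunit of the rotor ring, through different precursors. Atp5g2 was at 11.91, 11.92, 11.82 and 12.07 in KO/KO cells, 11.83, 11.80 and 12.06 in WT/KO cells and 12.10, 12.18, 12.04 and 12.00 in WT/WT cells. Atp5g3 was at 8.49, 8.93, 8.69 and 9.12 in KO/KO cells, 8.65, 8.57 and 8.53 in WT/KO cells and 8.60, 8.55, 8.99 and 8.60 in WT/WT cells. Both overlapped between groups. Log2 fold changes of Atp5g1, Atp5g2 and Atp5g3 were -0.14, -0.18 and -0.10 in WT/KO against WT/WT cells, -0.01, -0.15 and 0.12 for KO/KO cells against WT/WT cells, and 0.13, 0.03 and 0.22 in KO/KO against WT/KO cells.

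Of the 86 members, 18 were named by more than 1 row, and the row of highest mean was used. All rows of a member had the same sign for 8 of 18 members in WT/KO against WT/WT cells, 10 for KO/KO cells against WT/WT cells and 9 in KO/KO against WT/KO cells. The largest differences were among those not shared by the other row. Ndufa7 was at 0.56 in WT/KO against WT/WT cells in the row used (mean signal 11.07) and at 0.00 in the other (6.21). Uqcr11 was at 0.45 and 0.03 in WT/KO against WT/WT cells, and at 0.43 and 0.01 for KO/KO cells against WT/WT cells. Ndufb4, a membrane-arm subunit, was at 0.53 and 0.07 in WT/KO against WT/WT cells, and at 0.45 and -0.08 for KO/KO cells against WT/WT cells. Rows of Atp5g2 agreed, at -0.18 and -0.19 in WT/KO against WT/WT cells. The position of their probes in the transcripts is not given in the sources used here.

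**Figure D4:**
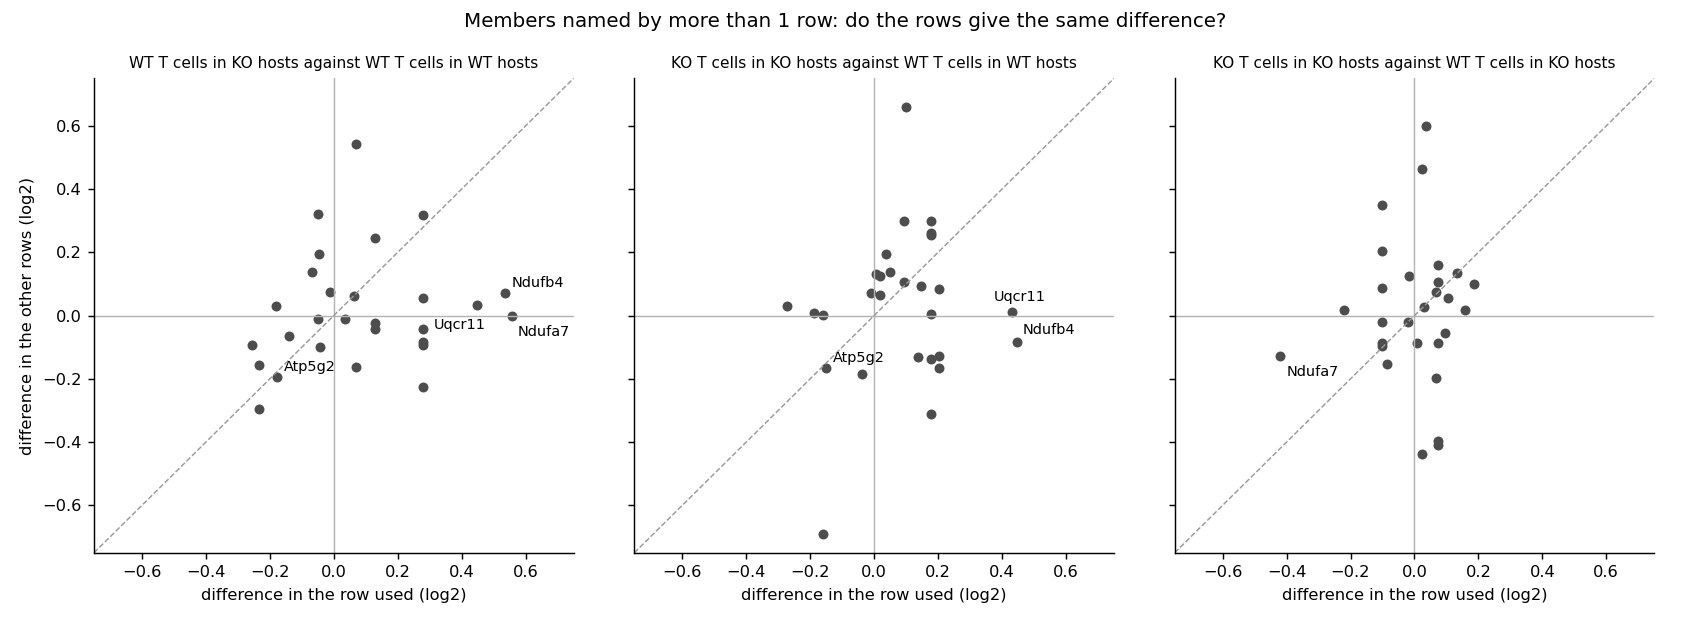
Difference in mean log2 signal in the row used (horizontal axis) and in each other row (vertical axis) of the 18 members named by more than 1 row, in the 3 comparisons (panels). The dashed line marks equal values. Ndufa7, Uqcr11 and Ndufb4 lie far right of it in WT/KO against WT/WT cells, at 0.56, 0.45 and 0.53 in the row used and near 0 in the other.

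No gene of the lists around the chain passed the test either. Of the citrate cycle and pyruvate entry list, 16 of 17 genes were tested, and 0 had an adjusted or an unadjusted p under 0.05 in any of the 3 comparisons with limma. Their median log2 fold changes were 0.07, 0.01 and -0.03, and 12, 8 and 4 genes were positive. Mitochondrial biogenesis and mtDNA expression (16 of 17 tested) had medians of 0.01, 0.13 and 0.05, with 8, 13 and 12 positive and 0 with an adjusted p under 0.05. Positive over all genes tested were 45.5%, 46.7% and 53.2%. For KO/KO cells against WT/WT cells 2 genes of this list were higher and 1 lower at an unadjusted limma p under 0.05, beside 8.46% of all genes in either direction.

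At an unadjusted p under 0.05 in that list was Ssbp1, which binds single-stranded mitochondrial DNA, at 0.65 (SE 0.22; limma adjusted p = 0.642) in WT/KO against WT/WT cells and 0.47 (SE 0.20; limma adjusted p = 0.572) for KO/KO cells against WT/WT cells. In the comparison of KO/KO cells with WT/WT cells so were Pprc1, a coactivator of the PGC-1 family, at 0.29 (SE 0.10; limma adjusted p = 0.471), and Twnk, the mitochondrial DNA helicase, at -0.46 (SE 0.15; limma adjusted p = 0.482). Pprc1 was at 0.30 (SE 0.10; limma adjusted p = 0.9998) in KO/KO against WT/KO cells. Of the factors whose motifs are described above, Nrf1 and Gabpa lay between -0.01 and 0.15 in all comparisons. Gabpb1, of another GABP subunit, was at 0.25 (SE 0.15), 0.11 (SE 0.14) and -0.14 (SE 0.15). The gene of YY1 was not in the lists.

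Assembly factors outside the Ndufaf series (32 of 35 tested) had medians of 0.02, 0.02 and -0.03, and carriers and enzymes against reactive oxygen (10 of 13 tested) had 0.05, 0.07 and 0.03. In both lists 0 genes had an adjusted p under 0.05. Unadjusted, Foxred1, an assembly factor of complex I, was at 0.38 (SE 0.15) in WT/KO against WT/WT cells. Coa5, of complex IV assembly, was at 0.27 (SE 0.12) and Prdx3, a mitochondrial peroxidase, at 0.54 (SE 0.20) for KO/KO cells against WT/WT cells. Cox15, which makes heme a for complex IV, was at 0.62 (SE 0.27) in KO/KO against WT/KO cells.

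Cerox1 is a noncoding RNA known in mouse to raise the level of several complex I transcripts, and it is not a member. It was at 4.82, 4.73, 4.38 and 4.97 in KO/KO cells, 5.36, 5.25 and 5.19 in WT/KO cells and 5.55, 5.56, 5.49 and 5.52 in WT/WT cells. The 3 groups did not overlap. KO/KO cells differed from WT/WT cells by -0.81 (SE 0.12; limma adjusted p = 0.104). WT/KO differed from WT/WT cells by -0.27 (SE 0.13; limma adjusted p = 0.660). KO/KO differed from WT/KO cells by -0.54 (SE 0.13; limma adjusted p = 0.9998). The complex I members had medians of 0.08 in KO/KO against WT/WT, 0.06 in WT/KO against WT/WT and -0.01 in KO/KO against WT/KO cells. Cerox1 was chosen with its result known, so its pattern is a description, and its signal in KO/KO cells lies near the minimum of 4.33.

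Monocyte and macrophage markers moved with the host in the same arrays. Of 13 tested, 9 had an unadjusted p under 0.05 for WT/KO against WT/WT cells, and 9 did for KO/KO cells against WT/WT cells. In KO/KO against WT/KO cells 0 did. As said above, the signal minimum can let in dim markers through the groups where they are high, which bears on these counts. Without the 2 narrower arrays these counts were 6 and 6, and all 13 stayed positive in both. None had an adjusted p under 0.05. The median log2 fold changes over all 13 were 0.64, 0.54 and -0.03. Medians of the respiratory chain members were 0.04, 0.04 and 0.01 in these comparisons. The part of other cells' RNA in single members was not tested.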

How the data were processed

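The values were log2 signals as deposited by the authors, from 1.27 to 14.4 over 115830 rows of 11 arrays. RMA, Partek and the build mm9 are named per the submitters' processing notes, and versions and probe selection are not given in the sources used here. RMA evens out the arrays' distributions, so a change shared by all genes would not be seen. The small RNA amounts were amplified first, per the labels' protocols.

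Rows were named by the platform annotation: 25539 (22.0%) name 1 gene, 2300 several and 87991 are unnamed here. Of the rows naming 1 gene, 24941 were found in RefSeq by Entrez identifier. For each gene the row of highest mean was used, and genes under the 25th percentile (log2 signal 4.33) were left out. The 22 rows that name several genes, 1 of which fits the rule, were not used.

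Groups came from the genotypes in the labels. limma (version 3.58.1, R 4.3.3; lmFit and eBayes) was run on all genes and all 11 arrays, with Benjamini-Hochberg adjustment and an adjusted p under 0.05. The number of arrays limits the precision. The fit was tested on simulated data. No array pair held more than 21 identical values. Values by array are given for the 5 members of lowest p in each direction of a comparison and for paired forms of complex IV subunits, and other lists name at most 3 genes by p in a comparison. Members and lists were chosen with earlier results of these data known. Promoter motifs were matched as exact letters in RefSeq sequence, another build than the authors', which does not enter the signals. Alternatives covered normalization, filter, rows, samples in the fit, variance model, array weights, the replicate number, each array left out, and both narrower WT/WT arrays left out, a choice that rests on earlier results of these data.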

Additional observations from a re-analysis of the deposited data

Results flagged for a closer look

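Among 76 groups of 4 arrays with values given by array, 2 held an array far from the others, where chance gives about 1 in 20. The c subunit gene Atp5g3 was at 8.99 log2 signal in array 3 of WT/WT cells, beside 8.55, 8.60 and 8.60 in the other arrays of that group. Cox6b1, a complex IV subunit gene, was at 8.49 in array 1 of KO/KO cells, beside 8.76, 8.78 and 8.78 in the others. Array 1 of KO/KO cells was also the lowest of all arrays by the median of the respiratory chain genes (-0.11).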

How the results depend on the processing

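Under 21 other settings, 11 of which leave out 1 array, 0 of 86 members had an adjusted p under 0.05 in any comparison, and the lowest adjusted p of a member was 0.378. The median log2 fold change of the members ran from -0.02 to 0.06 for WT/KO against WT/WT cells, from -0.02 to 0.10 for KO/KO against WT/WT cells and from -0.04 to 0.03 for KO/KO against WT/KO cells. All 629 values of named members kept their direction, and Ndufa4l2 has none under the filter at the 50th percentile. Over all genes, KO/KO against WT/WT cells gave 0 calls as reported, 2 with the filter at the 50th percentile, 2 when rows of a gene were averaged, 3 with the replicate block, and 0 to 1 with 1 array left out (1 without array 4 of KO/KO cells). Members at an unadjusted p under 0.05 in that comparison were 2 as reported, 5 after quantile normalization, 1 when rows were averaged, 1 with the replicate block, 6 without the 2 arrays of narrowest range, and 1 to 4 with 1 array left out. For WT/KO against WT/WT cells these were 4 as reported and 2 to 6 with 1 array left out. For KO/KO against WT/KO cells they were 4 as reported, 2 with only these groups in the fit and 2 to 5 with 1 array left out. The cause was not tested. Arrays of the same number had deviations correlated between -0.114 and 0.123, and arrays of different number between -0.243 and 0.182. With so few arrays a group, this does not settle whether the numbers pair samples. With the replicate block the members' medians were 0.05, 0.04 and 0.00.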
